A study of Arabidopsis thaliana with 32 samples.

Results

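The *SMALL AUXIN UP RNA* (*SAUR*) genes are a large family of short, mostly intronless plant genes, and 52 of them were followed here among the 27655 genes of the table. The rule that chose them used name and position, but the choice was made with earlier results of these data known. Of these, 24 lie in 4 tandem arrays, which hold 8 genes on chromosome 1 (AT1G29420 to AT1G29510), 4 on chromosome 3 (AT3G03820 to AT3G03850), 6 on chromosome 4 (AT4G34760 to AT4G34810), and 6 on chromosome 5 (AT5G18010 to AT5G18080), and the other 28 are called dispersed. Transcripts were measured by RNA-seq in whole Arabidopsis (*Arabidopsis thaliana*) seedlings of Col-0, the wild type, and of the mutants *pif4-2*, *hmr-22*, and *med14-2*. PIF4 is a basic helix-loop-helix transcription factor of warm-temperature growth, HMR (HEMERA) is a dual plastid and nuclear protein needed for phytochrome signaling, and MED14 is a subunit of the Mediator complex that links activators to RNA polymerase II. The study describes *hmr-22* as a weak missense allele and the *med14* line as a T-DNA insertion with strongly reduced *MED14* expression. No treatment other than temperature was given. All seedlings grew for 96 h in continuous red light (fluence rate 50 µmol m-2 s-1), kept at either 20°C or 27°C. There were 4 replicates of each of the 8 groups, or 32 libraries in all. Because whole seedlings were pooled for RNA, fewer cells of a type and less RNA per cell cannot be told apart.

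Auxin induces many SAUR genes within minutes, and their transcripts and proteins are short-lived. The SAUR proteins studied most closely, SAUR19 and its tandem neighbours, bind and inhibit clade D PP2C phosphatases (PP2C.D). Those phosphatases otherwise remove the phosphate that keeps plasma membrane proton ATPases (AHA) active, so SAUR proteins of this kind favour acidification of the wall and cell expansion. Other members act apart from elongation, in leaf senescence, for example, or in the ethylene pathway. In warm temperatures hypocotyls elongate, and auxin made downstream of PIF4 is known to take part in that growth.

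Library depth ran from 11911243 to 16883323 mapped fragments, as recovered from the deposited FPKM values (fragments per kilobase of exon, normalised to the mapped fragments of the library). Nuclear genes took 68.0 to 82.8% of those fragments in the cool Col-0 libraries and 91.9 to 93.0% in the warm ones. They took only 35.2 to 61.0% (20°C) and 64.4 to 74.7% (27°C) in libraries labelled *hmr-22*, and 55.9% in replicate 1 of *med14-2* at 27°C against 91.5 to 95.8% in its other 3 replicates. FPKM values were therefore scaled between libraries before any test, and the factors were 0.197 to 0.647 for the libraries labelled *hmr-22* and 0.871 to 1.83 for all others. The targeted genes were read first. At 27°C, *PIF4* stood at 22 to 26.6 FPKM in Col-0 but at 4.34 to 6.96 in *pif4-2*. The ranges overlapped at 20°C, at 5.495 to 9.362 FPKM in Col-0 and 4.018 to 6.456 FPKM in *pif4-2*, so *PIF4* did not separate those libraries. At 20°C, *HMR* ranged over 27.0 to 33.6 FPKM in Col-0 but 0.0766 to 0.352 FPKM in libraries labelled *hmr-22*, although the allele is described as missense. *MED14* was not lower in the libraries labelled *med14-2*, although the study describes the *med14* line as strongly reduced in *MED14* expression. The transcript stood at 9.73 to 10.4 FPKM against 4.97 to 6.31 FPKM for the wild type at 20°C, and at 6.11 to 11.8 FPKM against 8.03 to 9.68 FPKM at 27°C. For these reasons those libraries are named below by their labels. The libraries labelled *hmr-22* also had the widest spread between replicates (median SD of log2 values 0.461 at 20°C and 0.317 at 27°C, against 0.146 to 0.208 elsewhere) and the lowest summed level of 5 root and root hair markers (87.6 to 273 FPKM, against 1390 to 4833 elsewhere, with none of the 5 at 0 throughout). Photosynthetic markers of the seedling shoot were high in every library, from 16881 to 52949 FPKM over 5 genes. In the libraries labelled *med14-2* they were lower at 27°C (16881 to 27077 FPKM) than at 20°C (40792 to 46295 FPKM), without overlap. The same held in those labelled *hmr-22* (22184 to 31901 against 32606 to 52949 FPKM), while the ranges overlapped in Col-0. All marker sums here are deposited FPKM without scaling. The factors were 1.09 to 1.287 in the cool Col-0 libraries and 1.635 to 1.769 in the warm ones. Divided by these factors, the Col-0 sums were also lower at 27°C, without overlap. The sum of 5 seed markers was 16.1 to 29.7 FPKM in the libraries labelled *hmr-22* at 27°C, against 0.821 to 1.22 FPKM in those at 20°C and 1.2 to 2.53 FPKM in Col-0 at 27°C, and it ran from 0.728 to 38.9 FPKM in those labelled *med14-2* at 20°C.

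The 4 arrays differed in how alike their genes are. All positions are those of TAIR10, read from the TAIR10.1 reference of RefSeq, in which the 52 genes have the same coordinates. The 6 genes of the chromosome 5 array, *SAUR19* to *SAUR24*, lie within 21.5 kb (chr5:5962773-5984308), and the coding sequences of any pair are 87.7 to 95.2% identical (median 91.2%). The 4 genes of the chromosome 3 array, *SAUR26* to *SAUR29*, lie within 7.05 kb (chr3:976715-983768) at 77.7 to 86.3% identity. The chromosome 1 array of the *SAUR61* to *SAUR68* group (21.9 kb, chr1:10301377-10323239) ran from 45.4 to 89.3%, and the chromosome 4 array (17.4 kb, chr4:16582183-16599568) was the most diverse, at 47.3 to 62.4%. Dispersed members had a median identity of 46.1%. Likeness of this degree bears on how reads are counted, and so the first 60 coding bases of the chromosome 5 genes are shown, from RefSeq on TAIR10.1, with the 12 positions at which the 6 genes are not all the same in capitals.
SAUR19: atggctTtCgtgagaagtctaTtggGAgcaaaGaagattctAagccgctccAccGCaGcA
SAUR20: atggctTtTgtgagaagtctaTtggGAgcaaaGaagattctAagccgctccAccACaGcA
SAUR21: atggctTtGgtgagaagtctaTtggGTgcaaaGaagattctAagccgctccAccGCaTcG
SAUR22: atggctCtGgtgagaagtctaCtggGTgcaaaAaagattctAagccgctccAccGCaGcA
SAUR23: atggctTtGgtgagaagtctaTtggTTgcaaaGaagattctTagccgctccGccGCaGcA
SAUR24: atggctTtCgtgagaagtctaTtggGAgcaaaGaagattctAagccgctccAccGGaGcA
Although these stretches differ at few positions, every window of 150 bases in the transcripts of these 6 genes occurred at 1 place in the reference genome. The share of such windows was below 100% in 3 members, at 98.1% in *SAUR62*, 90.1% in *SAUR63*, and 91.8% in *SAUR67*, so values of these 3 are less certain. The annotations of *SAUR6* and *SAUR7* overlap on the same strand, which makes both uncertain as well. Of the 52 genes, 48 have a single exon, and their exon length ran from 427 to 1402 bases.

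Promoters of the arrays shared a short sequence. PIF proteins bind the G-box CACGTG and a related E-box, CACATG, and both were searched for on both strands from 250 bases before to 50 bases after the annotated start. CACATG was found at 19 of the 24 tandem members (79.2%) and at 8 of the 28 dispersed members (28.6%), against 3544 of 27443 protein-coding promoters (12.9%). It was present at 8 of 8 members on chromosome 1, 4 of 4 on chromosome 3, 4 of 6 on chromosome 4, and 3 of 6 on chromosome 5. The 200 bases before the start of 1 gene from each array and of the dispersed *SAUR9* and *SAUR78* are shown, with CACATG (or CATGTG, its reverse complement) in capitals, because these genes carry the comparisons that follow. They lie at chr4:16590979-16591178 (plus strand), chr1:10303419-10303618 (minus), chr3:977475-977674 (minus), chr5:5963406-5963605 (minus), chr4:17089734-17089933 (plus), and chr1:27265807-27266006 (minus), and come from RefSeq on TAIR10.1.
SAUR1: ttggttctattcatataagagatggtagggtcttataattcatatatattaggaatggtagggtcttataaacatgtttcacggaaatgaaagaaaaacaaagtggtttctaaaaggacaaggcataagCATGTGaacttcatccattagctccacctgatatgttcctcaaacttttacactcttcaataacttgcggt
SAUR62: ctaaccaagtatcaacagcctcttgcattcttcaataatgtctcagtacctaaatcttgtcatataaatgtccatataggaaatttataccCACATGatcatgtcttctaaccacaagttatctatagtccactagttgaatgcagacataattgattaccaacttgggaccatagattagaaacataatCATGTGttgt
SAUR29: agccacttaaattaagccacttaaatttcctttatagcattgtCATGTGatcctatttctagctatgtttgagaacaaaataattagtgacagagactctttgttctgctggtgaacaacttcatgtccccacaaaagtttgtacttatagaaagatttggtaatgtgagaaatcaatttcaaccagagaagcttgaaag
SAUR19: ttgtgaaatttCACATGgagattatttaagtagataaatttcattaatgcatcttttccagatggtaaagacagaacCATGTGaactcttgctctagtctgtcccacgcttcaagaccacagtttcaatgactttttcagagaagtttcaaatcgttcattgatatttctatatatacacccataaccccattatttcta
SAUR9: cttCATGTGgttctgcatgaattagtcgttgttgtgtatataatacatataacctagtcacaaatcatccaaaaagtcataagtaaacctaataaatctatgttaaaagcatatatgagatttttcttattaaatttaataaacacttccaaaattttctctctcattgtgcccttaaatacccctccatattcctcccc
SAUR78: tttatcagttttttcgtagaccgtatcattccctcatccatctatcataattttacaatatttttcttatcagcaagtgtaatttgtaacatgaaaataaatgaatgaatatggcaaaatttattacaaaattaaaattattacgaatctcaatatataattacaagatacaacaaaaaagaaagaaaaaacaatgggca
The motif occurred once in the stretches of *SAUR1*, *SAUR29*, and *SAUR9*, 2 times in those of *SAUR62* and *SAUR19*, and not at all in that of *SAUR78*. The G-box itself was found at 1 of the 52 members, the dispersed *SAUR59*, against 7.68% of all promoters. The auxin response element TGTCTC was found at 8 of 52 members (15.4%, against 14.2% of all promoters), and its core TGTC at 46 of 52 (88.5%, against 81.5%). A match describes these letters in this window and shows no binding.

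Levels of the members differed by far more than their changes with temperature. Their mean over all libraries reached 63.3 FPKM for *SAUR14* and 57.1 FPKM for *SAUR78*, both dispersed. Of the 52 members, 9 had a mean above 10 FPKM (3 tandem and 6 dispersed), 30 lay between 1 and 10, and 13 were below 1. The median member had 20 fragments in a library, and 9.01% of all member values were 0, so that counting error is large for many of them. In all, 50 members passed the filter on low values (at least 0.5 FPKM in at least 4 libraries), which *SAUR2* of the chromosome 4 array and the dispersed *SAUR25* did not.

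The balance between arrays and dispersed genes moved with temperature and differed among genotypes. In Col-0, the 24 tandem members made up 23.4, 22.4, 23.0 and 24.1% of the summed FPKM of all 52 members at 20°C and 43.0, 40.2, 45.2 and 43.6% at 27°C, with no overlap. This share is a ratio within a library, so that no scaling between libraries enters it, but it shows unequal change only. The corresponding ranges were 20.6 to 24.6% and 25 to 28.1% in *pif4-2*, which do not overlap either but lie closer together. In the libraries labelled *med14-2* the tandem share was higher than in Col-0 at 20°C, 31.4 to 33.5%, and was 36.9 to 42.7% at 27°C. In the libraries labelled *hmr-22* it went the other way, from 15.4 to 18.2% at 20°C to 3.07 to 6.6% at 27°C. Without *SAUR14* and *SAUR78*, which dominate the sum, the cool and warm ranges overlapped in *pif4-2* (34.6 to 40.4% and 38.7 to 42.7%) and in the libraries labelled *med14-2* (48.7 to 52.4% and 51.2 to 59.6%), and did not in Col-0 or in those labelled *hmr-22*. The median share then went from 36.3 to 58.7% in Col-0, from 38.5 to 40.4% in *pif4-2*, from 29.3 to 9.68% in the libraries labelled *hmr-22*, and from 49.3 to 55.5% in the libraries labelled *med14-2*.

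**Figure D1:**
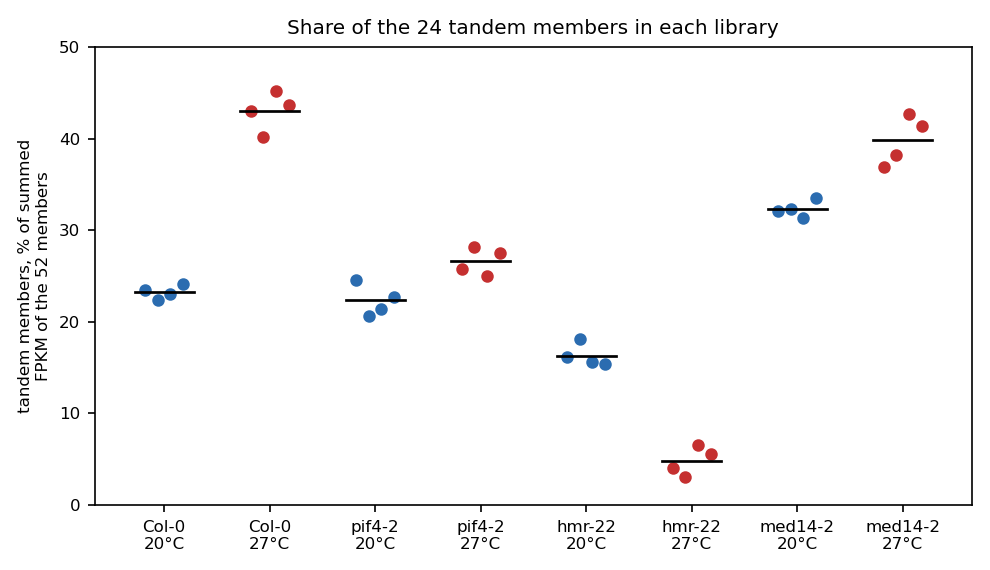
Share of the 24 tandem members in the summed deposited FPKM of the 52 members (y axis, %), by genotype and temperature (x axis), with 1 point per library and a bar at the mean of 4. The Col-0 points lie at 22.4 to 24.1% at 20°C and at 40.2 to 45.2% at 27°C, and those labelled *hmr-22* fall to 3.07 to 6.6% at 27°C.

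The first comparison asked how the members respond to warm temperature in the wild type. In Col-0, 11 of the 50 members tested rose from 20°C to 27°C and none fell, where 2.24% of all 19937 genes tested rose and 2.99% fell (limma, Benjamini-Hochberg adjusted p under 0.001, at least a 2-fold change, and a larger group mean above 1 FPKM). At an unadjusted p under 0.05, limma put 5 members lower, and voom on recovered fragments called 1 fall. Here and below, the share of all genes at this unadjusted threshold was not counted, so these counts have no background beside them. Of the 11 that rose, 9 are tandem (of 23 tested) and 2 are dispersed (of 27 tested). The log2 change was above 0 in 23 of 23 tandem members, with a median of 1.48, and in 11 of 27 dispersed members, with a median of -0.09 (0.34 without scaling), against 0.02 over all genes (0.49 without scaling). Median changes by array were 1.45 on chromosome 1, 1.37 on chromosome 3, 0.48 on chromosome 4, and 1.66 on chromosome 5. No test was made of the difference between tandem and dispersed members, since genes are not replicates. Changes here and below are differences of log2(scaled FPKM + 0.25), which understate the change of low genes.

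**Figure D2:**
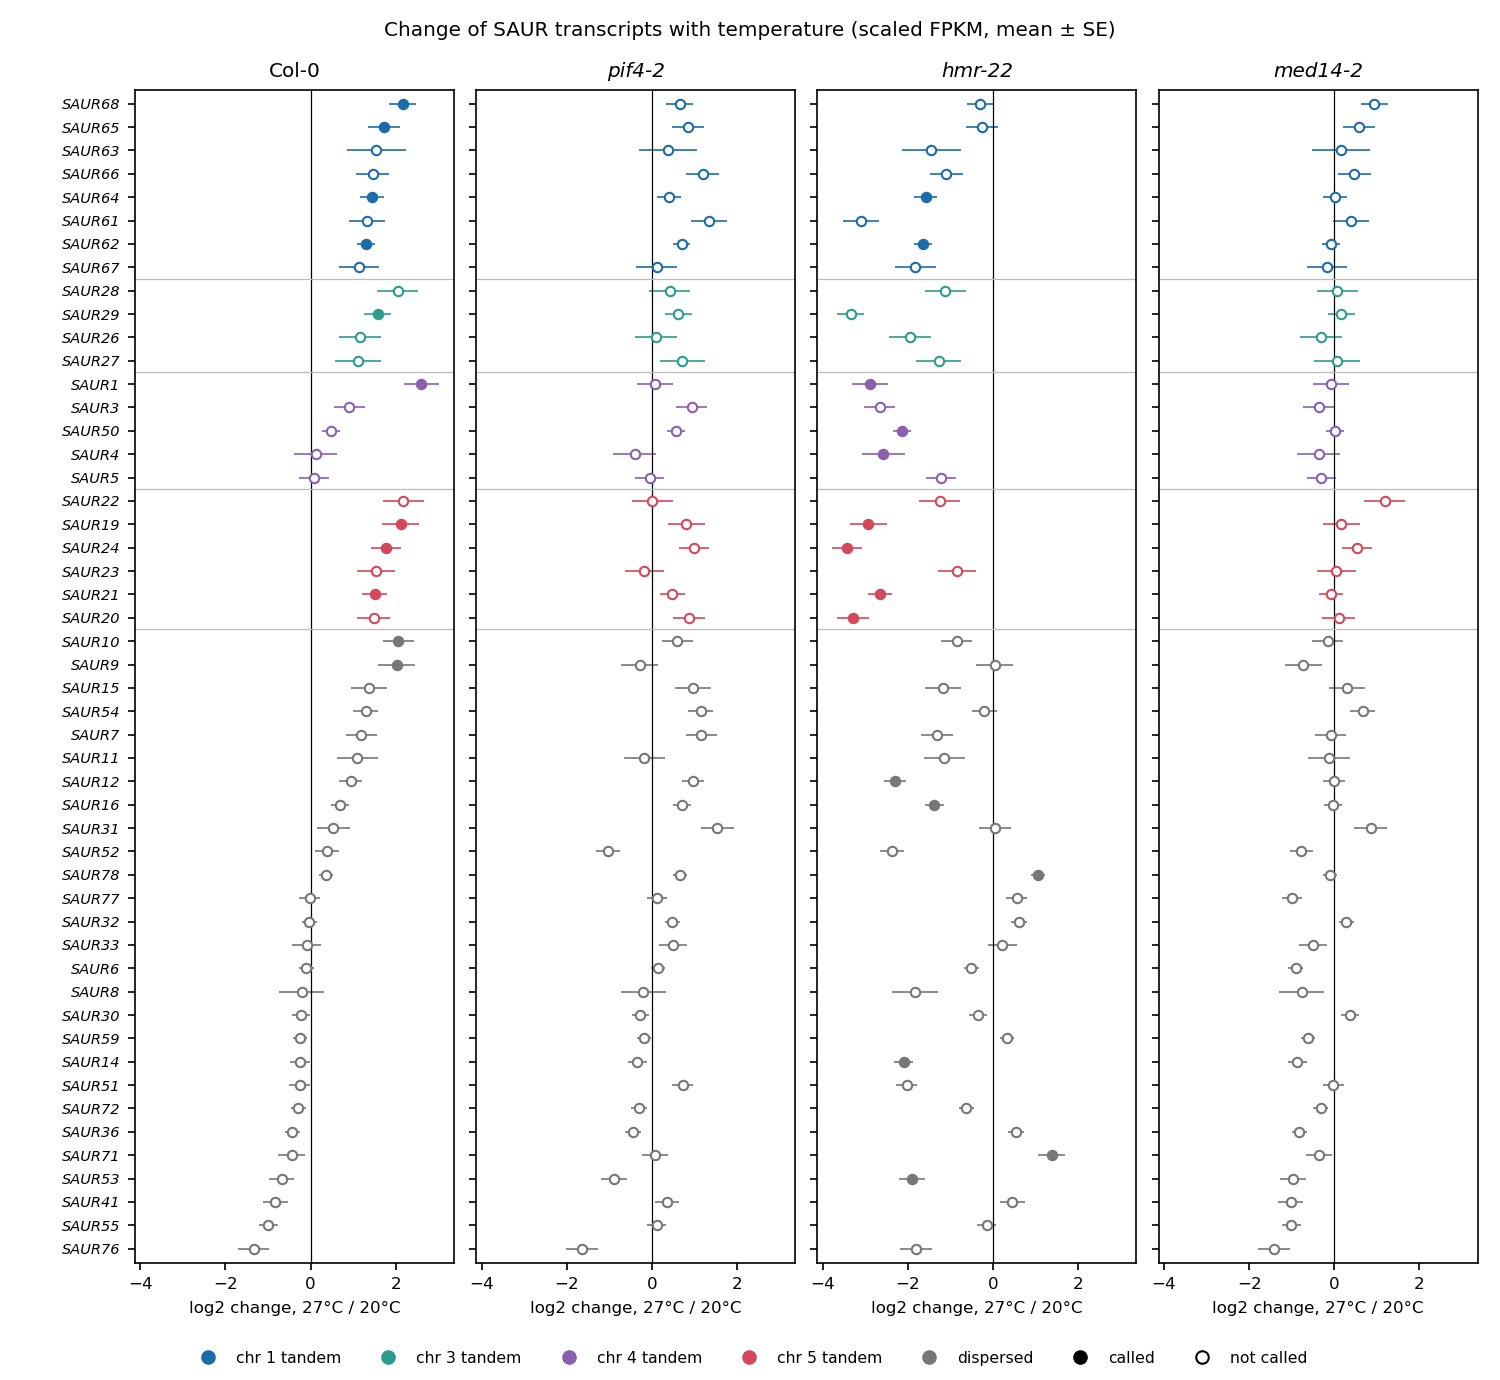
Change from 20°C to 27°C of the 50 members tested (x axis, log2 of scaled FPKM; y axis, members grouped by array and ordered by the change in Col-0) in Col-0, *pif4-2*, and libraries labelled *hmr-22* or *med14-2*, as estimate ± SE from limma, with filled points for called changes. All 23 tandem members lie right of 0 in Col-0 and left of 0 in the libraries labelled *hmr-22* (22 of them without scaling).

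The largest rise of any member was that of *SAUR1* (AT4G34770), in the chromosome 4 array. In Col-0, *SAUR1* stood at 0.552, 1.37, 1.15 and 1.26 FPKM at 20°C and at 15.2, 9.97, 11.3 and 9.09 FPKM at 27°C. The lowest warm library lay far above the highest cool one, and *SAUR1* rose by 2.61 (SE 0.42, adjusted p = 2.02e-05) on the log2 scale in limma's test. Its array neighbour *SAUR50* (AT4G34760), which acts with *SAUR16* in the light-driven opening of cotyledons, was the most abundant gene of that array. It stood at 13.0, 11.3, 9.87 and 17.1 FPKM at 20°C and at 24.5, 21.9, 29.0 and 25.7 FPKM at 27°C. These deposited values did not overlap either, but after scaling the change was 0.48 (SE 0.21, adjusted p = 0.0917), which did not pass. Of the 5 members of this array that were tested, *SAUR1* alone rose.

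On chromosome 1, 4 of 8 members rose, *SAUR62*, *SAUR64*, *SAUR65*, and *SAUR68*. This group is known for *SAUR63*, which promotes elongation of hypocotyls and stamen filaments. *SAUR62* stood at 5.90, 4.79, 4.83 and 7.73 FPKM at 20°C and at 21.3, 19.2, 22.2 and 20.5 FPKM at 27°C, and it rose by 1.31 (SE 0.21, adjusted p = 1.69e-05). *SAUR63* stood at 5.26, 3.19, 3.35 and 10.3 FPKM at 20°C and at 23.7, 20.5, 22.3 and 19.2 FPKM at 27°C, with no overlap, but the change of 1.55 (SE 0.69, adjusted p = 0.107 by limma) did not pass. Without the libraries labelled *hmr-22* in the fit, the *SAUR63* change was the same, its SE was 0.25, and it passed (adjusted p = 2.98e-05). *SAUR68* (AT1G29490) was scarce at 20°C, with 1 or 2 fragments in each library. *SAUR68* stood at 0.201, 0.115, 0.25 and 0.196 FPKM at 20°C and at 3.46, 1.91, 3.42 and 2.25 FPKM at 27°C, and it rose by 2.17 (SE 0.31, adjusted p = 4.03e-06). *SAUR64* went from 2.37 ± 0.343 to 9.88 ± 1.41 FPKM and *SAUR65* from 0.942 ± 0.305 to 5.29 ± 0.932 FPKM (mean ± SD, n = 4). In the 4 members that did not pass, the estimates were all above 0 as well, and the smallest of the 8 was 1.14.

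The chromosome 3 array holds *SAUR26* to *SAUR28*, which are tied to natural variation in growth at warm temperature, and *SAUR29*. Only *SAUR29* (AT3G03820) passed. *SAUR29* stood at 2.66, 0.91, 0.773 and 1.73 FPKM at 20°C and at 7.13, 5.94, 8.18 and 5.62 FPKM at 27°C, and it rose by 1.58 (SE 0.31, adjusted p = 2.93e-04). *SAUR26* stood at 1.70, 1.84, 1.06 and 2.59 FPKM at 20°C and at 7.61, 4.86, 6.83 and 5.03 FPKM at 27°C. Its warm libraries also lay above its cool ones, at a change of 1.15 (SE 0.50, adjusted p = 0.0903) that did not pass. The array's summed level went from 4.71 ± 1.58 to 19.8 ± 3.09 FPKM (mean ± SD, n = 4).

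In the chromosome 5 array, whose products inhibit PP2C.D phosphatases, *SAUR19*, *SAUR21*, and *SAUR24* rose. *SAUR19* stood at 0.638, 0.243, 0.531 and 0.727 FPKM at 20°C and at 4.08, 4.28, 5.55 and 4.56 FPKM at 27°C. All 4 warm libraries exceeded all 4 cool ones, and the change was 2.12 (SE 0.44, adjusted p = 4.36e-04). *SAUR24* stood at 0.538, 1.60, 1.48 and 1.37 FPKM at 20°C and at 6.80, 5.89, 8.42 and 6.32 FPKM at 27°C, which gave 1.78 (SE 0.35, adjusted p = 2.87e-04). *SAUR21* stood at 2.97, 1.28, 1.5 and 2.35 FPKM at 20°C and at 8.69, 7.35, 9.42 and 8.98 FPKM at 27°C, which gave 1.51 (SE 0.29, adjusted p = 1.82e-04). *SAUR20* was one of the 2 most abundant genes of the array. *SAUR20* stood at 2.46, 1.78, 2.92 and 2.18 FPKM at 20°C and at 9.09, 7.73, 11.2 and 12.4 FPKM at 27°C. Its warm and cool libraries did not overlap, yet its change of 1.48 (SE 0.38, adjusted p = 0.00396) fell short of the adjusted p required. The smallest estimate among the 6 genes was 1.48, so that the called and uncalled genes of this array differed little in the size of the change.

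The dispersed members that rose were *SAUR9* and *SAUR10*, both of low level. *SAUR9* (AT4G36110) is, like *SAUR19*, an inhibitor of PP2C.D phosphatases. *SAUR9* stood at 0.358, 0.245, 0.179 and 0.7 FPKM at 20°C and at 3.29, 2.96, 2.73 and 4.21 FPKM at 27°C, and the change was 2.02 (SE 0.43, adjusted p = 7.01e-04). *SAUR10* (AT2G18010), which has been linked to growth and branch angle, gave no fragment in 1 cool library. *SAUR10* stood at 0.309, 0, 0.385 and 0.226 FPKM at 20°C and at 2.66, 2.24, 3.18 and 2.30 FPKM at 27°C, and the change was 2.06 (SE 0.36, adjusted p = 6.40e-05). Both had warm libraries well clear of the cool ones.

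The most abundant dispersed members did not pass in Col-0. *SAUR14* stood at 42.6, 34.6, 34.2 and 68.6 FPKM at 20°C and at 55.4, 46.1, 57.9 and 48.3 FPKM at 27°C, with overlapping groups and a change of -0.25 (SE 0.23, adjusted p = 0.482). *SAUR78* stood at 32.3, 28.3, 30.8 and 41.8 FPKM at 20°C and at 56.4, 58.4, 67.0 and 58.9 FPKM at 27°C. *SAUR78*, whose product binds ethylene receptors, was thus higher at 27°C in deposited FPKM, but scaling left a change of 0.35 (SE 0.16, adjusted p = 0.124). *SAUR6* stood at 13.8, 11.8, 10.6 and 17.7 FPKM at 20°C and at 16.9, 16.7, 18.9 and 17.7 FPKM at 27°C, at a change of -0.10 (SE 0.17, adjusted p = 0.73). *SAUR16* stood at 13.1, 10.7, 7.37 and 15.9 FPKM at 20°C and at 32.3, 28.9, 24.3 and 21.4 FPKM at 27°C, at a change of 0.69 (SE 0.22, adjusted p = 0.0179). Among these 4, only the *SAUR16* and *SAUR78* libraries separated by temperature before scaling.

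The count for Col-0 depends on which libraries and which scaling are used. It was 20 (17 tandem, with 2.91% of all genes rising) when the libraries labelled *hmr-22* were left out of the fit, 22 (16 tandem, with 8.59% of all genes rising and the median of all genes shifted by 0.49) without scaling, 6 without any 1 of Col-0 replicates 1 or 2 at 20°C or replicate 1 at 27°C, 5 without replicate 3 at 20°C, 4 without replicate 3 at 27°C, and 7 without replicate 4 at 27°C. The calls of *SAUR1*, *SAUR10*, *SAUR62*, and *SAUR68* were kept whichever Col-0 library was left out.

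**Figure D3:**
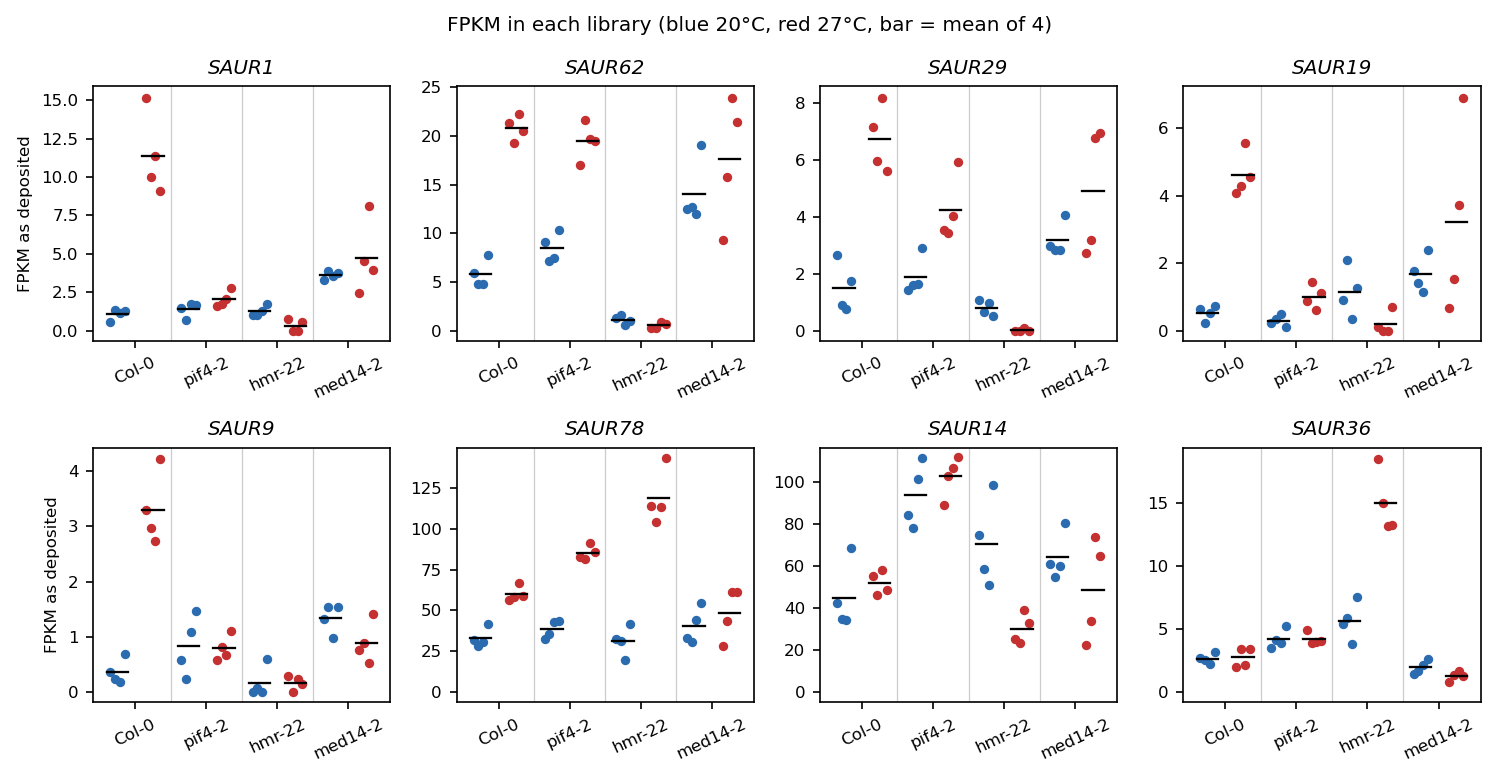
Deposited FPKM (y axis, linear, a separate scale per panel) of *SAUR1*, *SAUR62*, *SAUR29*, *SAUR19*, *SAUR9*, *SAUR78*, *SAUR14*, and *SAUR36* in each of the 32 libraries, by genotype (x axis), with blue points at 20°C, red points at 27°C, and a bar at the mean of 4. *SAUR1* reaches 9.09 to 15.2 FPKM in Col-0 at 27°C and no more than 8.11 FPKM in any other library, while *SAUR36* is highest, 13.2 to 18.5 FPKM, in the libraries labelled *hmr-22* at 27°C.

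The next comparison asked whether members respond otherwise in the *pif4-2* mutant. In *pif4-2*, none of the 50 members was called in either direction from 20°C to 27°C, where 3% of all genes rose and 2.7% fell (limma). At an unadjusted p under 0.05, 18 were higher and 4 lower, and voom called 1 rise and 1 fall. The median log2 change of tandem members was 0.57, with 20 of 23 above 0, and that of dispersed members was 0.12. A missed threshold in 1 genotype does not show a difference between genotypes, which was tested by the interaction of genotype and temperature (adjusted p under 0.05). There, the response was smaller than in Col-0 for *SAUR1*, *SAUR9*, and *SAUR52* and larger for none, where 0.943% of all genes had a smaller and 1.54% a larger response. At an unadjusted p under 0.05, 13 members had a smaller response, 10 of them tandem, and 3 a larger one, and voom called 2 larger. The comparisons of the 3 mutants share the Col-0 libraries, so their results are not independent of each other.

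In *pif4-2*, *SAUR1* stood at 1.48, 0.73, 1.71 and 1.67 FPKM at 20°C and at 1.61, 1.74, 2.09 and 2.76 FPKM at 27°C. The cool libraries were at the level of Col-0 and the warm ones were little higher, and the response differed from that of Col-0 by -2.53 (SE 0.59, adjusted p = 0.0134) on the log2 scale in limma's test. In *pif4-2*, *SAUR9* stood at 0.576, 0.244, 1.08 and 1.47 FPKM at 20°C and at 0.588, 0.826, 0.677 and 1.11 FPKM at 27°C, and its response differed by -2.30 (SE 0.61, adjusted p = 0.035). *SAUR52* went from 0.908 ± 0.366 to 0.417 ± 0.157 FPKM in *pif4-2* and from 0.604 ± 0.18 to 1.26 ± 0.33 FPKM in Col-0 (mean ± SD, n = 4). The difference of the *SAUR52* response was -1.42 (SE 0.39, adjusted p = 0.044).

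Not every array gene that rose in Col-0 behaved as *SAUR1* did. In *pif4-2*, *SAUR62* stood at 9.08, 7.14, 7.52 and 10.4 FPKM at 20°C and at 17.0, 21.7, 19.6 and 19.4 FPKM at 27°C, with the warm libraries again all above the cool ones, and its response differed from that of Col-0 by -0.61 (SE 0.29, adjusted p = 0.393). In *pif4-2*, *SAUR68* stood at 0, 0, 0 and 0.114 FPKM at 20°C and at 0.309, 0.105, 0.285 and 0.388 FPKM at 27°C, at most 4 fragments a library, with a difference of response of -1.51 (SE 0.44, adjusted p = 0.0646). In *pif4-2*, *SAUR19* stood at 0.244, 0.362, 0.495 and 0.121 FPKM at 20°C and at 0.874, 1.45, 0.604 and 1.13 FPKM at 27°C. The *SAUR19* difference of -1.31 (SE 0.62, adjusted p = 0.369) did not pass, although its Col-0 and *pif4-2* libraries at 27°C were well apart. In *pif4-2*, *SAUR24* stood at 1.48, 1.1, 1.00 and 1.34 FPKM at 20°C and at 2.65, 4.85, 3.56 and 4.27 FPKM at 27°C, and its difference was -0.79 (SE 0.50, adjusted p = 0.576). Estimates were below 0 in 20 of 23 tandem members (median -0.95) and near 0 on balance in dispersed ones (median 0.01), against -0.01 over all genes.

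Between genotypes at 1 temperature, the members called higher in *pif4-2* all lay outside the 4 arrays, but most of them have another member as a neighbour. At 20°C the median difference was 0.52 in tandem members, with 20 of 23 above 0, against -0.02 over all genes. In dispersed members it was 0.41, with 21 of 27 above 0. At 27°C the medians were -0.16 in tandem and 0.55 in dispersed members. Counting neighbouring members as tandem left 0 of the 3 higher at 20°C and 1 of the 5 higher at 27°C (*SAUR55*) in the dispersed class. At 20°C, *SAUR6*, *SAUR14*, and *SAUR16* were higher than in Col-0 and none was lower, where 0.677% of all genes were higher and 0.105% lower (limma). No member was lower at an unadjusted p under 0.05 either, and voom called none. At 27°C, 5 members were higher (*SAUR6*, *SAUR14*, *SAUR16*, *SAUR51*, and *SAUR55*) and 2 tandem members were lower (*SAUR1* and *SAUR68*), where 3.38% of all genes were higher and 1.1% lower. In *pif4-2*, *SAUR14* stood at 84.1, 77.9, 101 and 111 FPKM at 20°C and at 89.0, 103, 107 and 112 FPKM at 27°C, above every Col-0 library at the same temperature. The differences were 1.29 (SE 0.23, adjusted p = 4.26e-04) at 20°C and 1.20 (SE 0.23, adjusted p = 1.68e-04) at 27°C. In *pif4-2*, *SAUR16* stood at 22.5, 22, 24 and 28.6 FPKM at 20°C and at 53.5, 58.8, 53.8 and 55.9 FPKM at 27°C, with differences of 1.26 (SE 0.22, adjusted p = 3.77e-04) and 1.28 (SE 0.22, adjusted p = 4.53e-05). *SAUR14*, *SAUR15*, and *SAUR16* neighbour each other on chromosome 4, outside the 4 arrays.

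In *pif4-2*, *SAUR6* stood at 25.4, 23.0, 23.8 and 27.6 FPKM at 20°C and at 42.1, 39.4, 35.5 and 37.3 FPKM at 27°C, again above Col-0 throughout, with differences of 1.08 (SE 0.17, adjusted p = 2.08e-04) at 20°C and 1.34 (SE 0.17, adjusted p = 9.90e-07) at 27°C. The lower members at 27°C were *SAUR1*, at a difference of -2.07 (SE 0.42, adjusted p = 3.92e-04), and *SAUR68*, at -2.09 (SE 0.31, adjusted p = 7.68e-06). Without the libraries labelled *hmr-22* in the fit, 13 members had a smaller response in *pif4-2* (9 tandem, where 3.94% of all genes did) and 4 a larger one (*SAUR31*, *SAUR41*, *SAUR51*, and *SAUR55*, where 5.51% of all genes did), and 6 (5 tandem) were lower at 27°C, where 1.51% of all genes were. Without scaling, 9 members rose in *pif4-2* (10.8% of all genes did), none was higher than in Col-0 at 20°C, and 3 were higher and 5 lower at 27°C (1.73% and 2.74% of all genes), at an all-gene median of -0.21. All 3 smaller responses missed the threshold with a pseudocount of 0.1 FPKM (adjusted p = 0.0775 for *SAUR1*, 0.109 for *SAUR9*, and 0.0692 for *SAUR52*, limma). With 1 library left out, that of *SAUR1* alone was kept each time, and 1 remained without Col-0 replicates 1 or 2 at 20°C or 1, 2 or 4 at 27°C, or without *pif4-2* replicates 3 or 4 at 20°C or 1, 2 or 3 at 27°C. At 20°C, 0 members were higher without Col-0 replicates 2 or 3 or *pif4-2* replicates 1 or 4, and 1 without Col-0 replicate 1 or *pif4-2* replicate 3. At 27°C, 1 member was lower without replicates 1, 2 or 3 of either genotype, and 3 were higher without Col-0 replicate 2. The *SAUR51* call at 27°C was lost whichever library was left out, so that no such fit gave more than 4 higher members.

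The change was below 0 for 40 of the 50 members in the libraries labelled *hmr-22* (35 without scaling). There, 13 fell from 20°C to 27°C (9 tandem, and *SAUR12*, *SAUR14*, *SAUR16*, and *SAUR53*), and the dispersed *SAUR71* and *SAUR78* rose, where 8.3% of all genes fell and 13.8% rose (limma). Of the 11 members that rose in Col-0, 6 fell here (*SAUR1*, *SAUR19*, *SAUR21*, *SAUR24*, *SAUR62*, and *SAUR64*). How many of all genes that rose in Col-0 also fell here was not counted, so this overlap cannot be called particular to the members. All 23 tandem members had a change below 0 (22 without scaling), at a median of -1.83, against -0.51 in dispersed members and 0.18 over all genes, and without scaling the medians were -0.88, 0.16 and 0.74. The test of the interaction put the response of 23 of 23 tandem and 12 of 27 dispersed members below that of Col-0 and that of 7 dispersed members above it (*SAUR32*, *SAUR36*, *SAUR41*, *SAUR55*, *SAUR59*, *SAUR71*, and *SAUR78*), where 16.5% of all genes were below and 29% above. The median difference of response was -3.02 in tandem and -0.49 in dispersed members, against 0.20 over all genes. These splits depend on how neighbouring members are counted. With those counted as tandem, all 13 falls were tandem, the smaller responses were 32 tandem and 3 dispersed, and the median difference of response of the 17 remaining dispersed members was 0.30. Of these 42 calls, 37 were kept whichever library was left out. Responses above that of Col-0 numbered 4 without Col-0 replicate 1 at 27°C, replicate 2 labelled *hmr-22* at 20°C, or replicate 4 at 27°C. Rises with temperature numbered 0 without replicate 2 at 20°C and 1 without replicate 4 at 20°C or replicates 2, 3 or 4 at 27°C.

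Under the label *hmr-22*, *SAUR24* stood at 1.33, 1.05, 0.823 and 1.02 FPKM (20°C) and at 0, 0.11, 0.121 and 0 FPKM (27°C). It gave fragments in all 4 cool libraries and at most 1 in any warm one. *SAUR24* fell by 3.43 (SE 0.35, adjusted p = 1.20e-09), and the response differed from that of Col-0 by -5.22 (SE 0.50, adjusted p = 1.52e-09). *SAUR20* there stood at 3.18, 0.851, 1.59 and 1.72 FPKM at 20°C and at 0.342, 0, 0.251 and 0.366 FPKM at 27°C, which was -3.30 (SE 0.38, adjusted p = 1.07e-08) for the change and -4.78 (SE 0.54, adjusted p = 2.58e-08) for the difference of response. *SAUR1* there stood at 1.05, 1.00, 1.31 and 1.75 FPKM at 20°C and at 0.752, 0, 0 and 0.603 FPKM at 27°C, with a difference of response of -5.49 (SE 0.59, adjusted p = 1.38e-08). *SAUR21* there stood at 2.44, 3.23, 2.81 and 3.52 FPKM at 20°C and at 0.985, 0.821, 0.631 and 0.614 FPKM at 27°C, the highest level that any chromosome 5 gene kept there at 27°C.

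At 27°C, the medians of the 2 classes lay on opposite sides of Col-0 after scaling, and both lay below it without scaling (-3.54 in tandem and -1.12 in dispersed members). Lower in the libraries labelled *hmr-22* were 20 members, 15 of them tandem, and higher were 10, all dispersed, where 24% of all genes were lower and 23.6% higher (limma). The median difference was -2.38 in tandem and 0.40 in dispersed members, against -0.13 over all genes. With the label *hmr-22*, *SAUR29* stood at 1.09, 0.675, 0.969 and 0.525 FPKM (20°C) and at 0, 0, 0.0994 and 0 FPKM (27°C), and at 27°C it was -3.89 from Col-0 (SE 0.31, adjusted p = 1.24e-12). *SAUR62* there stood at 1.3, 1.58, 0.618 and 0.957 FPKM at 20°C and at 0.33, 0.33, 0.906 and 0.706 FPKM at 27°C, and was -3.40 from Col-0 at 27°C (SE 0.21, adjusted p = 1.91e-15). *SAUR10* gave no fragment in any of the 4 warm libraries and was at least 14.1-fold higher in Col-0 after scaling, against a floor of 3 fragments over the group. The dispersed members that were lower were *SAUR9*, *SAUR10*, *SAUR15*, *SAUR31*, and *SAUR51*.

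*SAUR36* (AT2G45210), which promotes leaf senescence and is also known as *SAG201*, was the member with the largest rise over Col-0. Under the label *hmr-22*, *SAUR36* stood at 5.43, 5.91, 3.82 and 7.53 FPKM (20°C) and at 18.5, 15.0, 13.2 and 13.3 FPKM (27°C), against 2.69, 2.55, 2.21 and 3.18 FPKM and 1.97, 3.45, 2.18 and 3.47 FPKM in Col-0. No library overlapped at either temperature, and the difference at 27°C was 3.87 (SE 0.18, adjusted p = 3.42e-18). *SAUR72* there stood at 6.09, 8.10, 6.10 and 9.32 FPKM at 20°C and at 8.17, 8.82, 9.82 and 7.98 FPKM at 27°C, against 2.21, 2.60, 2.32 and 2.76 FPKM and 3.04, 3.54, 2.14 and 2.64 FPKM in Col-0, also without overlap. *SAUR72* belongs to the *SAUR41* subfamily, and was higher by 3.38 (SE 0.18, adjusted p = 5.57e-17) at 20°C and by 3.05 (SE 0.18, adjusted p = 6.82e-16) at 27°C.

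With the label *hmr-22*, *SAUR78* stood at 32.4, 31.3, 20.0 and 42.0 FPKM (20°C) and at 114, 104, 113 and 143 FPKM (27°C). It rose there by 1.07 (SE 0.16, adjusted p = 1.75e-06) and was the most abundant member of these warm libraries. *SAUR14* fell, from 74.5, 58.3, 51.1 and 98.4 FPKM at 20°C to 25.2, 23.3, 38.8 and 32.9 FPKM at 27°C, and the change was -2.10 (SE 0.23, adjusted p = 2.91e-09). *SAUR6* there stood at 27.5, 27.5, 18.7 and 41.7 FPKM at 20°C and at 33.2, 30.9, 39.6 and 40.7 FPKM at 27°C, and it was higher than in Col-0 at both temperatures. *SAUR33* there stood at 1.33, 1.98, 0.764 and 1.66 FPKM at 20°C and at 3.71, 1.29, 3.14 and 4.73 FPKM at 27°C, on 5 to 31 fragments a library, and the difference from Col-0 was 3.44 (SE 0.34, adjusted p = 1.33e-10) at 27°C.

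**Figure D4:**
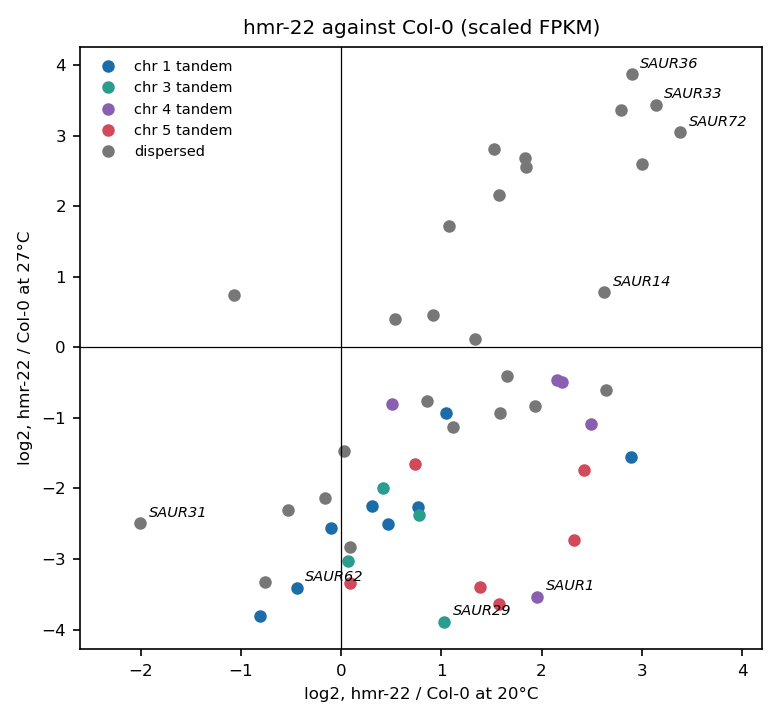
Difference between the libraries labelled *hmr-22* and Col-0 at 20°C (x axis) and at 27°C (y axis), in log2 of scaled FPKM, for the 50 members tested, colored by array or dispersed. All tandem members lie below 0 on the y axis, down to −3.89, and the points above 0 on that axis are dispersed, up to 3.87.

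At 20°C the direction itself depends on scaling. In the libraries labelled *hmr-22*, 19 members were higher than Col-0 after scaling (6 tandem and 13 dispersed) and 1, *SAUR31*, was lower, where 21.5% of all genes were higher and 28% lower. Without scaling, 3 were higher (*SAUR6*, *SAUR33*, and *SAUR72*) and 6 lower, where the median of all genes was −1.69 and 4.72% of all genes were higher and 60.4% lower. At 27°C, the unscaled counts were 7 higher and 34 lower (22 tandem), where 6.74% of all genes were higher and 56.5% lower, at an all-gene median of −1.45. Of the interaction calls, 33 smaller responses (22 tandem) and 7 larger ones were made without scaling, where 11.2% of all genes had a smaller and 27.7% a larger response. The warm change alone gave 7 rises and 7 falls, where 33.4% of all genes rose and 2.66% fell. The low share of fragments in nuclear genes moved with these results. So did, in deposited FPKM, the low level of root markers and, at 27°C, the lower level of shoot markers and higher level of seed markers. The part of each in these results was not tested, and shoot markers were also lower at 27°C in Col-0 after scaling.

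In the libraries labelled *med14-2*, as in *pif4-2*, none of the 50 members was called from 20°C to 27°C, where 1.62% of all genes rose and 2.83% fell (limma). At an unadjusted p under 0.05, 4 were higher and 10 lower, and voom called 1 fall. The median change was 0.07 in tandem and -0.36 in dispersed members. By the test of the interaction, the response was smaller than in Col-0 in 7 members (*SAUR1*, *SAUR21*, *SAUR62*, and *SAUR64* of the arrays and the dispersed *SAUR6*, *SAUR9*, and *SAUR10*) and larger in none, where 4.37% of all genes had a smaller and 2.03% a larger response. No member had a larger response at an unadjusted p under 0.05 either, and voom called none. The estimate was below 0 in 23 of 23 tandem members, at a median of -1.31, and in 22 of 27 dispersed members, at a median of -0.46, against 0.02 over all genes.

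Estimates for the array genes in these libraries lay above Col-0 at 20°C in 23 of 23 members and below it at 27°C in 22 of 23. Over all genes, 49.6% lay above Col-0 at 20°C and 50.2% at 27°C. At 27°C the dispersed members also lay below Col-0, in 24 of 27, at a median of -0.50 against -0.38 in the array genes. With the label *med14-2*, *SAUR62* stood at 12.5, 12.7, 12 and 19.0 FPKM (20°C) and at 9.35, 15.8, 23.9 and 21.4 FPKM (27°C). Every cool library lay above every Col-0 library at 20°C, a difference of 1.18 (SE 0.21, adjusted p = 1.70e-04), and the response was smaller, at -1.38 (SE 0.29, adjusted p = 0.00233). *SAUR1* there stood at 3.32, 3.88, 3.58 and 3.74 FPKM at 20°C and at 2.44, 4.53, 8.11 and 3.95 FPKM at 27°C, and its cool libraries were above those of Col-0 while the warm ones were below. The *SAUR1* response differed from that of Col-0 by -2.68 (SE 0.59, adjusted p = 0.00345). *SAUR21* there stood at 5.15, 3.05, 4.30 and 7.05 FPKM at 20°C and at 2.39, 4.94, 9.80 and 8.48 FPKM at 27°C, and its response differed by -1.58 (SE 0.41, adjusted p = 0.0126).

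Under the label *med14-2*, *SAUR9* stood at 1.32, 1.55, 0.976 and 1.53 FPKM (20°C) and at 0.761, 0.882, 0.532 and 1.42 FPKM (27°C). The pattern was that of *SAUR1* at a lower level, above Col-0 at 20°C and below it at 27°C, and the response differed by -2.75 (SE 0.61, adjusted p = 0.00352). *SAUR10* there stood at 0.0679, 0.238, 0.0752 and 0.248 FPKM at 20°C and at 0, 0.173, 0.082 and 0.425 FPKM at 27°C, with overlapping groups, and the response differed by -2.21 (SE 0.51, adjusted p = 0.00511). At 27°C, *SAUR10* was the 1 member lower than in Col-0, at a difference of -2.40 (SE 0.36, adjusted p = 1.26e-05), and none was higher, where 1.85% of all genes were lower and 1.38% higher. At an unadjusted p under 0.05, 1 member was higher at 27°C, and voom called none. *SAUR6* there stood at 17.8, 18.1, 15.5 and 22 FPKM at 20°C and at 7.71, 9.68, 18.4 and 15.7 FPKM at 27°C, and its response differed by -0.80 (SE 0.25, adjusted p = 0.045).

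At 20°C, *SAUR62* was the 1 member higher than in Col-0 and none was lower, where 1.24% of all genes were higher and 0.717% lower (limma). At an unadjusted p under 0.05, 16 were higher (10 tandem) and 8 lower, with no count over all genes at this threshold, and voom called none lower. The log2 difference was above 0 in 23 of 23 tandem members, at a median of 0.85, and in 16 of 27 dispersed members, at a median of 0.03. The warm group was uneven, with replicate 1, whose share in nuclear genes was 55.9%, giving the lowest FPKM of *SAUR62*, *SAUR1*, and *SAUR21*. Without that replicate, 5 members had a smaller response, and the range over all left-out libraries was 5 to 10. At 20°C, 0 members were higher without Col-0 replicate 2 or *med14-2* replicate 4, and 2 without Col-0 replicate 4 or *med14-2* replicate 2. From 20°C to 27°C, 1 member fell without replicate 1 at 20°C and 3 without replicate 3 at 27°C. Without the libraries labelled *hmr-22* in the fit, 24 members had a smaller response (16 tandem), where 7.96% of all genes did, and 6 were higher at 20°C, where 1.62% of all genes were. In deposited FPKM, the lower level of shoot markers in the warm libraries labelled *med14-2* moved with the smaller responses. Its part in them was not tested, and shoot markers were also lower at 27°C in Col-0 after scaling.

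Set beside the promoter sequences shown above, the members with CACATG had a median change of 1.36 from 20°C to 27°C in Col-0 (26 tested) and those without it a median of 0.16 (24 tested). The motif was present at 9 of the 11 members that rose and at 17 of the 39 tested that did not. Since 19 of the 27 members with the motif are tandem, motif and array cannot be told apart here. In *pif4-2* the medians were 0.42 with and 0.42 without the motif. They were -0.05 with and -0.13 without it in the libraries labelled *med14-2*, and -1.62 and -0.49 in those labelled *hmr-22*. The median with the motif was thus not above the other in *pif4-2*, and was little above it in the libraries labelled *med14-2*. In those labelled *hmr-22* the gap ran the other way, with the lower median at members with the motif. These differences between medians were not tested. The members that rose in Col-0 without the motif were *SAUR10* and *SAUR24*.

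Other genes of the pathway were read from lists. Of 26 further SAUR genes, 13 passed the filter and none was called in Col-0 from 20°C to 27°C by limma, where 2.24% of all genes rose and 2.99% fell. The call alone shows no lack of response. *AT4G38825* went from 1.18 ± 0.241 to 9.13 ± 0.46 FPKM (mean ± SD, n = 4), a change of 2.19 (SE 0.59, adjusted p = 0.00621, limma). *AT4G31320* went the other way, by -1.57 (SE 0.37, adjusted p = 0.00182). Of 9 PP2C.D phosphatases, the targets of SAUR proteins, 1 rose, *AT5G02760*, from 17.4 ± 3.90 to 73.6 ± 4.69 FPKM (mean ± SD, n = 4), a change of 1.58 (SE 0.27, adjusted p = 4.45e-05). Its response was smaller than in Col-0 in each of the 3 mutant comparisons, which share the Col-0 libraries. Of 8 plasma membrane proton ATPase genes tested, *HA2* and *AT3G60330* fell, the former from 379.8 ± 27.6 to 245 ± 28.6 FPKM. None of 6 auxin receptor genes and none of 5 activating ARF genes was called. Among 7 PIF and brassinosteroid factors, *PIF4* rose by 1.19 and *PIL6* (*AT3G59060*, also *PIF5*) by 1.60. In the libraries labelled *hmr-22*, the signed response of all 8 proton ATPase genes tested was above that of Col-0, where 29% of all genes had this. The change itself was not always larger. *HA2* changed by -1.15 in Col-0 and by 0.20 in those libraries, while *HA3* changed by -0.13 and 2.06.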

How the data were processed

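The values deposited by the authors are FPKM (1 table, 27655 genes, 32 libraries), from strand-specific paired-end reads mapped to TAIR10 in CLC Genomics Workbench. Columns not mapped to a sample numbered 0. A plan for counts did not apply, because the deposited values are FPKM. With reference exon lengths, 99.4 to 99.6% of values up to 1000 fragments came within 0.05 of whole fragments, which gave the depth. The replicates are described as separate samples, and p-values measure the spread between them only.

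The filter asked for 0.5 FPKM or more in 4 or more libraries (19937 genes). Values were scaled by an unweighted trimmed mean of M values (30% of M and 5% of A trimmed) and tested as log2(scaled FPKM + 0.25) with limma 3.58.1 (trend and robust variances, statmod 1.5.0, R 4.3.3) in 1 fit of 8 group means, with Benjamini-Hochberg adjustment over all genes tested within a comparison. Changes with temperature and between genotypes needed an adjusted p under 0.001, a 2-fold change, and a larger group mean above 1 FPKM. Differences of response needed an adjusted p under 0.05. They are signed, so that a smaller response means a lower change and a larger one a higher change. The fit was tested on simulated data. The table gives a symbol for 20 members, and 32 symbols came from RefSeq, whose TAIR10.1 coordinates match for all 52.

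The members and gene lists were chosen with earlier results of these data known. Members named with every library's value are the 2 of highest mean level in each array and the 4 highest dispersed ones, the 5 largest changes called in Col-0, and the 2 largest differences called in each other comparison. *SAUR71*, *SAUR52*, and others outside that rule are named because a count was small. Alternatives were median-ratio scaling, no scaling, no filter, pseudocounts of 0.1 and 1 FPKM, a replicate block, only the groups compared, a fit leaving out those labelled *hmr-22*, voom on recovered fragments, neighbouring members counted as tandem, and each library left out. Protein sequences were not used here.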

Additional observations from a re-analysis of the deposited data

Results flagged for a closer look

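In 160 groups of 4 libraries (20 members in 8 groups), 12 had 1 library far from the other 3 by Dixon's test. Chance alone flags about 1 in 20 groups of continuous values. That rate does not hold near 0, where 1 library with any fragment against 3 at 0 is always flagged. This was so for *SAUR29* labelled *hmr-22* at 27°C and for *SAUR68* in *pif4-2* at 20°C and labelled *hmr-22* at 27°C, on at most 2 fragments. *SAUR62* stood at 19.0 FPKM in replicate 4 of *med14-2* at 20°C, against 12 to 12.7 in the others. *SAUR29* stood apart in 3 groups, at 2.92 FPKM in replicate 4 of *pif4-2* at 20°C (others 1.42 to 1.65), at 4.08 FPKM in replicate 4 of *med14-2* at 20°C (others 2.82 to 2.96), and at 0.0994 FPKM in replicate 3 labelled *hmr-22* at 27°C (others 0). *SAUR68* did so at 0.114 FPKM in replicate 4 of *pif4-2* at 20°C (others 0), at 0.225 FPKM in replicate 3 labelled *hmr-22* at 27°C (others 0), and at 1.81 FPKM in replicate 3 of *med14-2* at 27°C (others 0.787 to 0.960).

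Among the rest, *SAUR19* stood at 0.697 FPKM in replicate 4 labelled *hmr-22* at 27°C (others 0 to 0.109) and *SAUR9* at 0.595 FPKM in replicate 4 labelled *hmr-22* at 20°C (others 0 to 0.0779). *SAUR33* stood at 0.156 FPKM in replicate 2 of Col-0 at 27°C (others 0.521 to 0.560) and at 0.816 FPKM in replicate 3 of *med14-2* at 20°C (others 0.287 to 0.369). *SAUR36* stood at 4.93 FPKM in replicate 1 of *pif4-2* at 27°C (others 3.90 to 4.04).

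The effect of temperature differed from that in Col-0 by limma's test of the interaction in 3 members (lower) in *pif4-2*, in 35 (lower) and 7 (higher) in the libraries labelled *hmr-22*, and in 7 (lower) in those labelled *med14-2*, all at an adjusted p under 0.05.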

How the results depend on the processing

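Counts are of members called, with the main count first. The cause of each move was not tested. From 20°C to 27°C in Col-0, the 11 rises became 22 without scaling, 7 with a pseudocount of 0.1, 20 with only the groups compared, 20 without the libraries labelled *hmr-22*, and 17 with voom. The 9 tandem rises became 16, 17, 17 and 14 (without scaling, only the groups compared, without *hmr-22*, voom). The 2 dispersed rises became 6 without scaling, 1 without a filter, 1 with a pseudocount of 0.1, 3 with only the groups compared, 3 without *hmr-22*, and 3 with voom, and the 0 falls became 1 with those last 3. In *pif4-2*, the 0 rises became 9 without scaling, 1 with a pseudocount of 1, 2 with only the groups compared, 3 without *hmr-22*, and 1 with voom, and the 0 falls became 1 with the same settings other than no scaling and with the block. In the libraries labelled *hmr-22*, the 2 rises became 7 without scaling and 1 with median-ratio scaling, a pseudocount of 1, only the groups compared, or voom, and the 13 falls became 7 without scaling and 7 with only the groups compared. In *med14-2*, the 0 rises became 1 without scaling and the 0 falls 1 with voom or the block.

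Against Col-0 at 20°C, the 3 higher in *pif4-2* became 0 without scaling. The 19 higher labelled *hmr-22* became 3 without scaling, and the 1 lower became 6 without scaling and 0 with only the groups compared. The 1 higher in *med14-2* became 6 with only the groups compared, 6 without *hmr-22*, and 2 with the block. At 27°C, the 5 higher in *pif4-2* became 3 without scaling, and the 2 lower became 5 without scaling, 1 and 4 with pseudocounts of 0.1 and 1, and 6 with only the groups compared, without *hmr-22*, or with voom. The 20 lower labelled *hmr-22* became 34 without scaling. The 1 lower in *med14-2* became 3 without scaling, and 2 with only the groups compared or without *hmr-22*.

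Of responses against Col-0, the 3 lower in *pif4-2* became 7 without scaling, 0 and 6 with pseudocounts of 0.1 and 1, 14 with only the groups compared, 13 without *hmr-22*, and 6 with voom, and the 0 higher became 1 with median-ratio scaling, no scaling, or the block, 2 with a pseudocount of 1 or voom, and 4 with only the groups compared or without *hmr-22*. The 7 higher labelled *hmr-22* became 3 with median-ratio scaling. The 7 lower in *med14-2* became 16 without scaling, 22 with only the groups compared, 24 without *hmr-22*, and 14 with voom.

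With 1 library left out, Col-0 rises ran from 4 to 12 (tandem 3 to 9, dispersed 1 to 3) and falls from 0 to 1. Rises labelled *hmr-22* ran from 0 to 2, and falls in *med14-2* from 0 to 3. At 20°C, higher members ran from 0 to 3 in *pif4-2* and from 0 to 2 in *med14-2*, and lower ones labelled *hmr-22* from 1 to 2. At 27°C in *pif4-2*, 3 to 4 were higher and 1 to 2 lower. Lower responses in *pif4-2* ran from 1 to 3 and higher ones from 0 to 1, and higher ones labelled *hmr-22* from 4 to 7.

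Without scaling, 7 members called higher in the libraries labelled *hmr-22* at 20°C turned in direction, *SAUR41* (-0.25), *SAUR53* (-0.44), *SAUR78* (-0.12), *SAUR32* (-0.84), *SAUR16* (-0.27), *SAUR24* (-0.13), and *SAUR55* (-0.10 on the log2 scale). Of the other results for single members, 2456 kept their call and 226 missed the threshold in the same direction. Replicate numbers were not taken to pair libraries (all 4 correlations over 0.1 in 3 of 28 group pairs, mean 0.0812 for the same number and -0.027 for others). This check cannot exclude a pairing in some groups. The replicate block moved no count beyond those given. Counting neighbouring members as tandem left 9 tandem rises in Col-0, and moved 4 falls and 9 smaller responses labelled *hmr-22* and most of the higher members in *pif4-2* from dispersed to tandem. Low counts (a median of 20 fragments) limit the precision for most members.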
